A study of Mus musculus with 8 samples.

Results

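The 9 miRNAs described here are made mostly outside the nervous system: the 5 members of the miR-200 family (mmu-miR-200a, mmu-miR-200b, mmu-miR-200c, mmu-miR-141 and mmu-miR-429), mmu-miR-203 and mmu-miR-205 of epithelia, mmu-miR-122 of the liver and mmu-miR-375 of endocrine cells. The prefix mmu, for mouse, is left out below. They were chosen by name among the 375 miRNA assays of a TaqMan Array Mouse MicroRNA card A, a plate of quantitative PCR assays, and all 9 have an assay on the card. RNA was taken from the ventral part of the lumbar spinal cord. The groups were 4 wild type mice of the FVB strain and 4 MLC/SOD1[G93A] mice on the FVB background, and every mouse was 4 months old. The MLC/SOD1[G93A] mice carry mutant SOD1 under the myosin light chain promoter, which is active in skeletal muscle, so that the transgene is not aimed at the tissue profiled here. Each mouse gave 1 card. The wild type samples carry the numbers 1 to 4, whereas the MLC/SOD1[G93A] columns are named 5a to 8a, numbers that no sample label uses, and were assigned to their group only. The study asked whether mutant SOD1 in muscle alters the RNA of the spinal cord.

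The miR-200 family is known for keeping epithelial cells epithelial, by repressing Zeb1 and Zeb2, the transcriptional repressors of E-cadherin. In skin, miR-203 limits the proliferation of basal keratinocytes through p63, and miR-205 is a miRNA of stratified epithelia. Hepatocytes make miR-122 as their most abundant miRNA, and miR-375 controls insulin secretion in the pancreatic islet. In the spinal cord, neurons and glia are not epithelial, whereas the ependyma that lines the central canal is an epithelium-like layer with cilia.

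The sequences are shown because the 5 miR-200 assays must tell near-identical RNAs apart. The names on the card carry no arm, and each was taken as the main arm of its hairpin. The mature sequences of 7 of the 9 miRNAs were taken from RefSeq (mouse build GRCm38.p6), and the capitals mark the seed, bases 2 to 8 from the 5′ end, which pairs with target mRNAs. The first 3 share a seed, the next pair shares another, and the last lines have their own.
miR-200b-3p: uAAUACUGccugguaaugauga
miR-200c-3p: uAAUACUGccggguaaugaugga
miR-429-3p: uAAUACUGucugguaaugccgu
miR-200a-3p: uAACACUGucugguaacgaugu
miR-141-3p: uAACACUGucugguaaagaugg
miR-203-3p: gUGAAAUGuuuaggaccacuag
miR-205-5p: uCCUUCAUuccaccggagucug
Between the seed of miR-200a and that of miR-200b 1 base differs (C4U, counted from the 5′ end). Over 22 bases, miR-200b and miR-200c differ at 2 positions (U11G and A22G), and so do miR-200a and miR-141 (C17A and U22G). The family comes from a pair of gene clusters, each of which is transcribed as 1 precursor. The hairpins of Mir429 (chr4:156053905-156053987), Mir200a (chr4:156054896-156054985) and Mir200b (chr4:156055681-156055750) lie on the minus strand of chromosome 4, with 908 bases between the first pair and 695 bases between Mir200a and Mir200b. Those of Mir141 (chr6:124717914-124717985) and Mir200c (chr6:124718322-124718390) lie on the minus strand of chromosome 6, with 336 bases between them. Mir203 (chr12:112130880-112130955) and Mir205 (chr1:193507463-193507530) are single genes.

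For each well the card gives either a threshold cycle (Ct), at which fluorescence passes a set threshold, or no Ct. Since template about doubles with each cycle, a low Ct means much template, and a Ct over 35 counts as not measured, as in the methods of the study. Assays differ in efficiency, so Ct values were compared between samples and not taken as levels between miRNAs. As a check of the tissue, the cord and brain miRNAs miR-138, miR-9, miR-124, miR-128a, miR-219 and miR-338-3p were measured in all 8 samples. Their mean Ct ran from 21.58 for miR-138 to 30.32 for miR-338-3p. This check is weak, since 190 of the 375 assays were measured in all 8 samples, the epithelial miR-203 among them. Over the whole card, 239 to 256 of the 375 assays were measured per sample. The plant control miR159a, which should give no signal, crossed the threshold at 29.85 cycles in sample 7a and in no other sample. Sample 7a also had the lowest mean Ct of the 4 U6 wells (16.88, against 17.45 to 18.50), and sample 8a stood apart in assays that only 1 sample measured or missed, as described beside the results.

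The 9 miRNAs filled 72 wells, of which 41 had a Ct of 35 or less, 3 had a Ct over 35 and 28 had none. That is 56.9% of their wells, beside 65.4% of the 3000 miRNA wells of the card. Per sample, 4 to 6 of the 9 were measured in wild type mice (20 of 36 wells in all) and likewise 4 to 6 in MLC/SOD1[G93A] mice (21 of 36 wells). Without samples 7a and 8a, 29 wells were left.

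**Figure D1:**
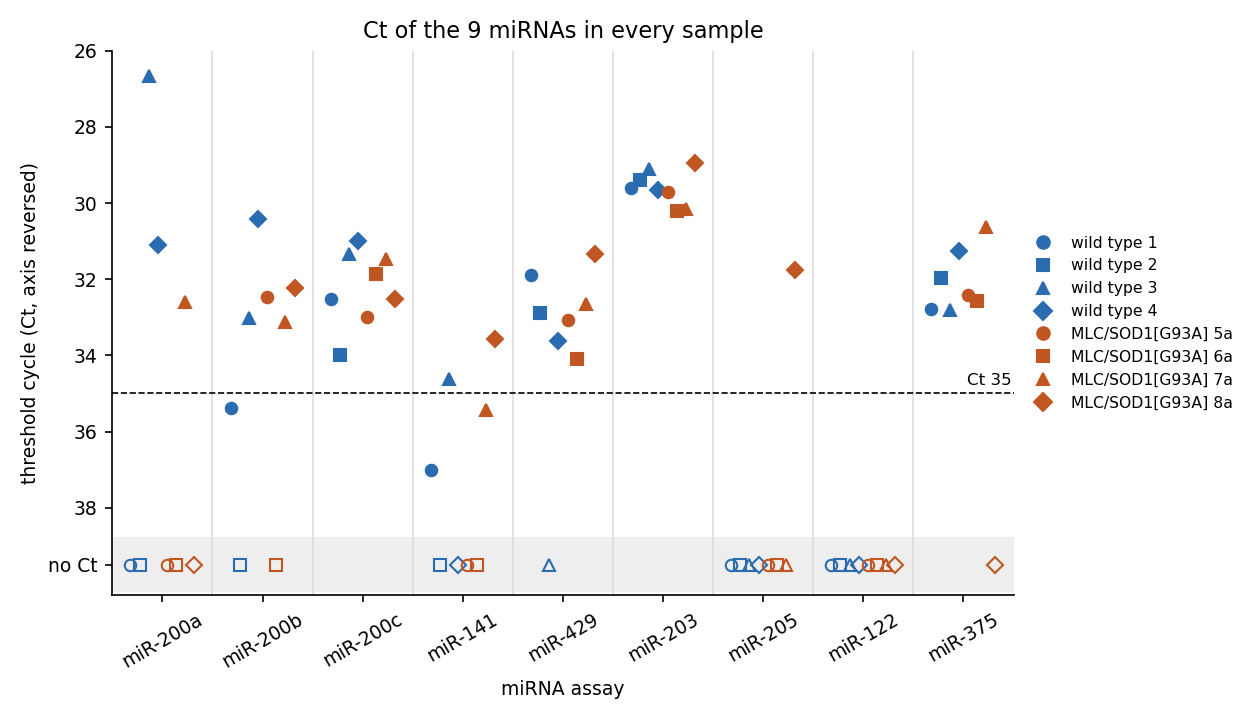
Threshold cycle (Ct, axis reversed so that more template lies higher) of the 9 assays in each of the 8 samples, with wild type in blue, MLC/SOD1[G93A] in orange and open symbols in the grey band for wells with no Ct. The points of miR-203 lie between 28.94 and 30.21, those of miR-200c between 31.00 and 33.99, and miR-122 has no Ct in any sample.

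Of the 9, miR-203 and miR-200c were measured in all 8 samples, miR-429 and miR-375 in 7, miR-200b in 5, miR-200a in 3, miR-141 in 2, miR-205 in 1 and miR-122 in 0. Over the card, 190 assays (50.7%) were measured in all 8 samples, 81 (21.6%) in none and 104 (27.7%) in 1 to 7. Of the 9 miRNAs, 6 fall in this partly measured class.

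**Figure D2:**
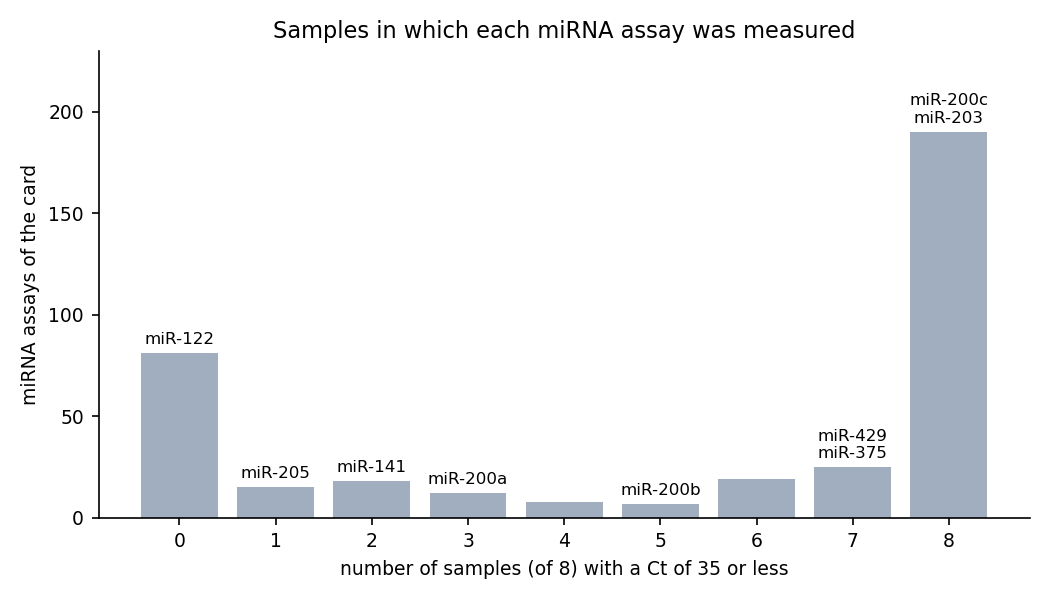
Number of miRNA assays of the card (vertical axis) by the number of samples with a Ct of 35 or less (horizontal axis), with the 9 miRNAs named above their bar. The bars at 8 samples (190 assays) and at 0 samples (81 assays) hold miR-200c and miR-203, and miR-122, respectively.

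The epithelial miRNA miR-203 had the lowest Ct of the 9 in every sample but wild type 3. Its Ct was 29.60, 29.39, 29.11 and 29.67 in wild type 1 to 4. In samples 5a, 6a, 7a and 8a it was 29.71, 30.21, 30.16 and 28.94. All 8 values lay within 1.27 cycles, the groups overlapped, and both the lowest and the highest value came from MLC/SOD1[G93A] mice. Among the 190 assays measured in every sample, ordered from low to high mean Ct, miR-203 (mean Ct 29.60 ± 0.45, SD, n = 8) stood at 116. The SD of its Ct within groups was 0.452 cycles, below the median of these 190 assays (0.528). The assays closest to it in Ct were miR-137, with a mean absolute difference of 0.34 cycles over 8 samples, and miR-324-3p (0.3525 cycles).

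Relative to U6, the log2 expression of miR-203 (mean U6 Ct minus Ct) was -11.38 ± 0.62 (SD, n = 4) in the wild type mice, against -11.80 ± 1.04 (SD, n = 4) in the MLC/SOD1[G93A] mice. The change was -0.41 (standard error 0.63, 95% interval -1.74 to 0.92, adjusted p = 0.975 in limma; two-sided exact permutation test, p = 0.600). Sample 7a lay lowest at -13.28, and without it the change was 0.08. When the average Ct of the 190 assays measured in all samples (the global mean) replaced U6, the change was -0.06 with an interval of -0.72 to 0.60, which spans folds of 0.606 to 1.52 (two-sided exact permutation test, p = 0.829). The interval gives the precision of the estimate with 4 cards a group, and the smallest detectable change was not computed.

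Within the seed group of miR-200b, miR-200c and miR-429, miR-200c alone was measured in all samples. Its Ct was 32.52, 33.99, 31.35 and 31.00 in wild type 1 to 4 and 32.99, 31.87, 31.46 and 32.51 in samples 5a to 8a. The wild type values ran from the lowest to the highest of all 8, and the MLC/SOD1[G93A] values lay inside their range. By mean Ct (32.21 ± 0.99, SD, n = 8) miR-200c stood at 181 of the 190 assays in the same order of Ct, which is not an order of levels. The SD of its Ct within groups was 1.07 cycles, 177th when the 190 assays were ordered from the smallest to the largest SD. The closest assays in Ct were miR-668, with a mean absolute difference of 0.4225 cycles, and miR-449a (0.6875 cycles). Relative to U6, miR-200c lay at -14.16 ± 1.50 (SD, n = 4) in wild type mice and at -14.25 ± 0.59 (SD, n = 4) in MLC/SOD1[G93A] mice. The change of -0.09 (standard error 0.70, 95% interval -1.56 to 1.38, adjusted p = 0.975 in limma; two-sided exact permutation test, p = 0.971) was smaller than either SD. Relative to the global mean it was 0.26 (interval -1.05 to 1.57), so its sign depended on the reference.

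For miR-429 the Ct was 31.88, 32.89 and 33.63 in wild type 1, 2 and 4, with no Ct in wild type 3. In samples 5a to 8a it was 33.08, 34.09, 32.65 and 31.33. The groups overlapped, with the lowest and the highest value both in MLC/SOD1[G93A] mice. Wild type 3 missed 1 assay that every other sample measured, and this was miR-429. Relative to U6 the change was 0.04 (standard error 0.70, 95% interval -1.43 to 1.51, adjusted p = 0.975 in limma), from -14.87 ± 0.55 (SD, n = 3) in wild type to -14.83 ± 1.10 (SD, n = 4) in MLC/SOD1[G93A] mice (two-sided exact permutation test, p = 0.971). The value leaves out wild type 3.

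For miR-200b, which differs from miR-200c at 2 bases, the Ct was 35.37, 33.02 and 30.43 in wild type 1, 3 and 4. In samples 5a, 7a and 8a it was 32.48, 33.12 and 32.24, and wild type 2 and sample 6a gave no Ct. The 3 MLC/SOD1[G93A] values lay within 0.88 cycles, inside the 4.94 cycles that the wild type values spanned with the one over 35 counted. Among wells of 35 or less, sample 7a (33.12) lay just above the highest wild type value (33.02). With the value over 35 left out, 2 wild type samples remained, too few for the test. When wells up to a Ct of 40 were kept, wild type 1 among them, the log2 change of miR-200b was 0.10 (standard error 1.20, 95% interval -2.50 to 2.69), and with at least 2 samples a group and the limit of 35 it was -1.40 (interval -3.37 to 0.57). The direction thus turned with 1 wild type well.

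The members of the other seed group were measured in few samples. For miR-200a the Ct was 26.67 in wild type 3, 31.10 in wild type 4 and 32.60 in sample 7a, with no Ct in the other 5 samples. The well of wild type 3 lay 4.43 cycles below the next, the lowest Ct of any of the 9 miRNAs. Of 261 assays measured in at least 3 samples, 3 had a lowest well more than 4 cycles below the next, and the other two (miR-197 and miR-339-5p) were in sample 8a. In the same wild type 3 the neighbour in the cluster, miR-200b, had a Ct of 33.02, and miR-429 had none. For miR-141 the Ct was 34.62 in wild type 3 and 33.57 in sample 8a, over the limit at 37.00 in wild type 1 and 35.44 in sample 7a, and absent in the other 4 samples. Wild type 3 was the one sample in which both were measured.

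Members of 1 cluster were not always measured in the same samples. All 3 miRNAs of the chromosome 4 cluster were measured in wild type 4 and sample 7a, and 15 of its 24 wells had a Ct of 35 or less. In the chromosome 6 cluster miR-200c was measured in 8 samples and miR-141 in 2, and both were measured in wild type 3 and sample 8a.

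The stratified epithelium miRNA miR-205 gave a signal in a single sample, in sample 8a at a Ct of 31.75, while the other 7 samples gave no Ct. Over the card, 15 assays were measured in 1 sample alone, and 7 of these were in sample 8a, against 0 to 3 in each other sample. Among them was miR-449b, a miRNA of ciliated epithelium, with a Ct of 27.80. The part of this card in the miR-205 signal was not tested. The hepatocyte miRNA miR-122 gave no Ct in any of the 8 samples, as did 65 assays (17.3%) of the card. A card gives no count, so no upper limit for its level can be stated.

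The endocrine miRNA miR-375 had a Ct of 32.77, 31.96, 32.82 and 31.26 in wild type 1 to 4. In samples 5a, 6a and 7a it was 32.42, 32.58 and 30.63, and sample 8a gave no Ct. The lowest value was that of sample 7a, and the other values of both groups overlapped. Over the card, 25 assays were missing in 1 sample alone, and 13 of these were missing in sample 8a, with 0 to 4 in each other sample. Whether this card accounts for the missing well was not tested. Relative to U6, miR-375 lay at -14.14 ± 0.94 (SD, n = 4) in wild type and at -13.92 ± 0.16 (SD, n = 3) in MLC/SOD1[G93A] mice, a change of 0.23 (standard error 0.66, 95% interval -1.17 to 1.62, adjusted p = 0.975 in limma; two-sided exact permutation test, p = 0.743). Relative to the global mean the change was 0.71 (interval -0.48 to 1.89). On that scale sample 7a lay at -1.94, against -3.64 and -3.71 in samples 5a and 6a and a wild type range of -4.71 to -3.24. With the missing well set to a Ct of 35 the change relative to U6 was -0.55, and without wild type 1 it was -0.17. Its direction thus rests on how sample 8a is treated and on wild type 1.

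**Figure D3:**
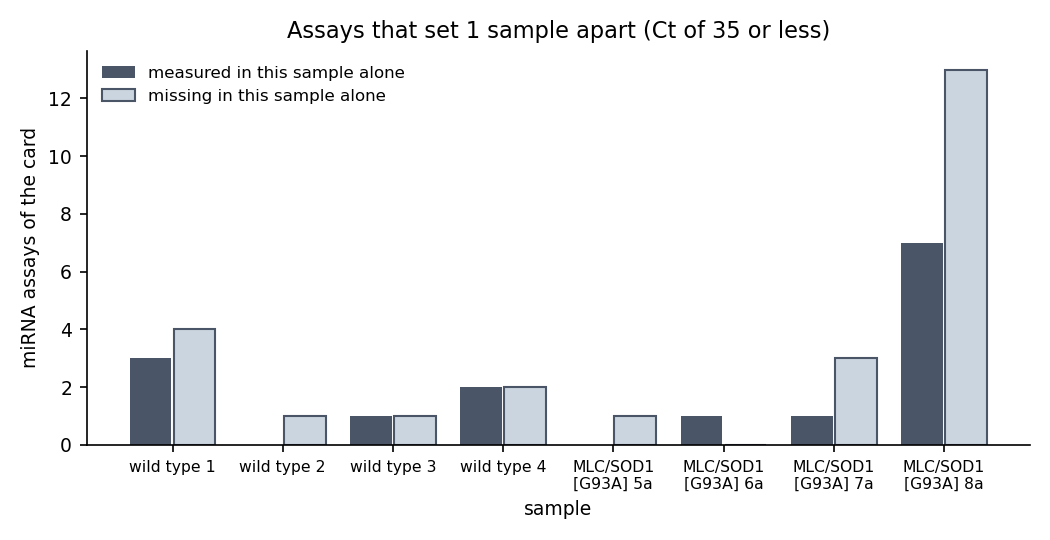
Number of miRNA assays of the card (vertical axis) that were measured in 1 sample alone (dark bars) or missing in 1 sample alone (light bars), by sample, with a Ct of 35 or less taken as measured. Sample 8a holds 7 of the 15 assays measured alone, miR-205 among them, and 13 of the 25 missing alone, miR-375 among them.

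The number of samples with a Ct of 35 or less differed between the groups for 5 of the 9 miRNAs, in each by 1 sample. It was 2 in wild type and 1 in MLC/SOD1[G93A] for miR-200a, 2 and 3 for miR-200b, 3 and 4 for miR-429, 0 and 1 for miR-205, and 4 and 3 for miR-375. A two-sided Fisher exact test gave p = 1 for each. For miR-205, miR-429 and miR-375, where 1 sample was measured or 1 was missing, every split gives this value. The smallest p that 4 against 4 samples allow in this test, 0.0286, needs 4 measured samples, all of 1 group. None of these miRNAs was measured in 4 samples, so the test could not decide whether their detection differs. The share of the card's assays whose number of measured samples differs between the groups was not computed.

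In the comparison of expression, the assays fitted together with limma were those with at least 3 measured samples per group. This left 227 of 375 assays and 4 of the 9 miRNAs: miR-203, miR-200c, miR-429 and miR-375. Of these 4, 0 had an adjusted p under 0.05 and 0 an unadjusted p under 0.05, relative to U6 as well as to the global mean. The background over the 227 assays relative to U6 was 0% at an adjusted p under 0.05, and 2.64% (6 assays) without adjustment. With the global mean it was 9.25% (21 assays) without adjustment. Without wild type 1, the counts relative to U6 were 4 assays at an adjusted p under 0.05 and 37 without adjustment, and the smallest adjusted p of the 4 miRNAs was 0.503 in limma. The change relative to U6 was negative for 2 of the 4 and positive for 2, with a median of -0.03, beside -0.31 over all 227 assays. Relative to the global mean 1 was negative and 3 were positive, with a median of 0.21 beside 0.04. The groups overlapped for all 4 under both references. With 4 samples against 3, as for miR-429 and miR-375, the two-sided exact permutation test gives 0.0571 at the smallest. The study calls the wild type mice littermates, but no source used here ties a sample to a litter or a day, so litter did not enter the tests. In bulk tissue fewer cells of a type and less RNA per cell cannot be told apart.

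**Figure D4:**
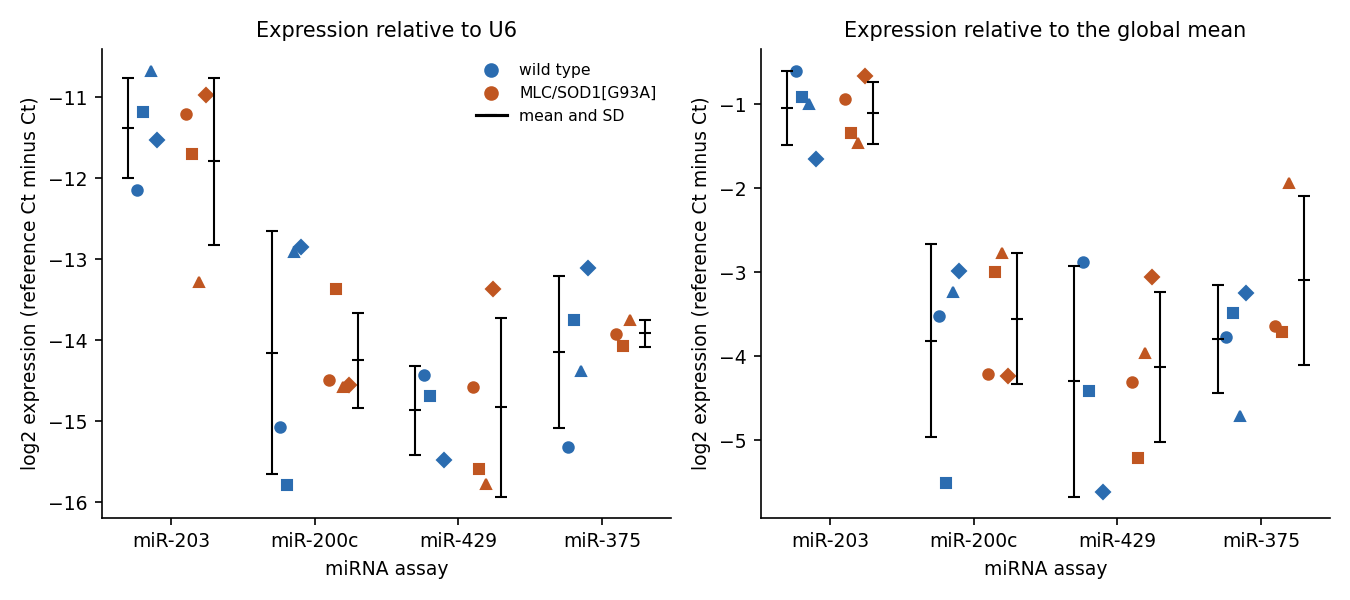
Log2 expression (reference Ct minus Ct, vertical axis) of the 4 tested miRNAs in each sample, relative to U6 (left) and to the global mean (right), with wild type in blue, MLC/SOD1[G93A] in orange, circle, square, triangle and diamond for wild type 1 to 4 and for samples 5a to 8a, and black bars for the mean and SD of a group. For miR-203, sample 7a lies at -13.28 on the left, apart from the rest, and at -1.47 on the right, inside the wild type range.

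**Figure D5:**
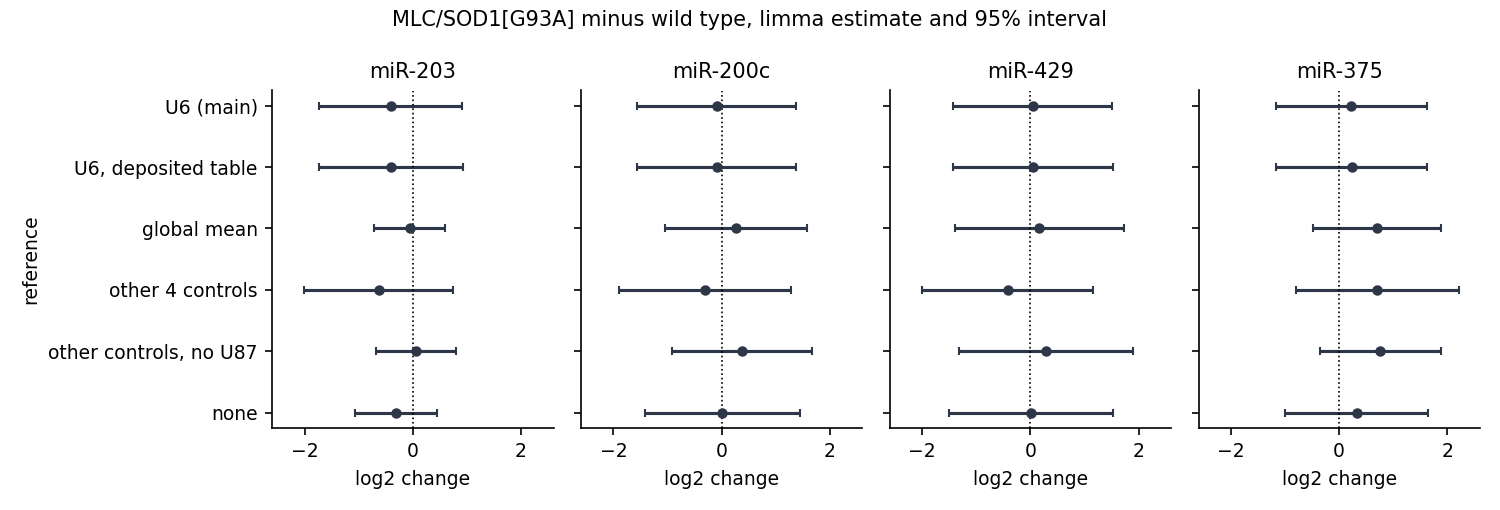
Log2 change (MLC/SOD1[G93A] minus wild type, horizontal axis) of the 4 tested miRNAs with its 95% interval from limma, for each reference (vertical axis). Every interval crosses 0, and the point for miR-203 moves from -0.63 with the other 4 controls to 0.05 when U87 is left out of them.

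For comparison, a list of 13 other miRNAs known from organs or epithelia outside the cord was read in the same way. Of its 104 wells, 72 had a Ct of 35 or less (69.2%), 7 to 11 per sample. All 8 samples measured miR-192 and miR-194 of liver, gut and kidney (mean Ct 30.46 and 30.31), miR-31 of stratified epithelium (28.62), miR-34b-3p and miR-449a of ciliated epithelium (27.72 and 31.92) and the pancreatic miR-216b (33.26). Like miR-122, miR-802 of liver and pancreas gave no Ct in any sample. In 7 samples miR-217 was measured, in 6 miR-184 and miR-34c, in 2 miR-215 and miR-216a, and in 1 miR-449b. Of the 7 that could be tested, 0 had an adjusted p and 0 an unadjusted p under 0.05 in limma, relative to U6 as well as to the global mean. The study lists miR-192 and miR-194 among the miRNAs significantly lower in MLC/SOD1[G93A] mice. Here their log2 changes relative to U6 were -0.34 and -0.66 (adjusted p = 0.975 in limma for both). Why the calls differ was not tested. For miR-34c, also of ciliated epithelium, the Ct was 33.40, 32.68, 30.91 and 31.35 in wild type 1 to 4 and ran from 32.72 (sample 8a) to 35.69 (sample 6a) in MLC/SOD1[G93A] mice, so that the groups overlapped. It was measured in 4 wild type and 2 MLC/SOD1[G93A] samples (two-sided Fisher exact test, p = 0.429). This is the most uneven split that 6 measured samples allow, so the test could give no smaller p and decides nothing here. The split was the same for miR-184 of eye epithelium, with 4 and 2 samples (p = 0.429 in the same exact test). The other ciliated epithelium miRNAs did not share it, since miR-34b-3p and miR-449a were measured in all 8 samples and miR-449b in sample 8a alone.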

How the data were processed

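Total RNA of lumbar ventral spinal cord was reverse transcribed by the authors with Megaplex primers, run on TaqMan card A, 1 card a mouse, and read with SDS RQ Manager 2.4. The authors deposited the Ct of each well without normalization. They also deposited a log2 table, the Ct minus the mean of the 4 U6 wells, which was matched here within 0.01, and a table of fold changes between the groups, which was not used. The members and lists were chosen with earlier results of these data known. All 9 members were named, as were list miRNAs measured in any sample, the cord markers and the 2 assays nearest in Ct to each member measured in all samples. miR-802 and the miRNAs of the early wells (miR-197, miR-339-5p) were named after their values were seen.

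Log2 expression was the mean U6 Ct minus the Ct, with a Ct over 35 or no Ct taken as missing. MLC/SOD1[G93A] was set against wild type by limma 3.58.1 (R 4.3.3) without covariates, with Benjamini-Hochberg adjustment over the 227 miRNAs measured in at least 3 of 4 samples a group. Exact permutation tests (70 or 35 assignments) and Fisher exact tests used scipy 1.17.1 and were two-sided. The fit was tested on simulated data with independent noise for each assay. That test does not cover the error of U6, which all assays of a card share. Alternatives were other references, limits of Ct 32 and Ct 40, missing wells handled otherwise, an ordinary linear model and leaving out samples. Having no depth, cards limit the precision by their number. Since no source used here gives the litter or run of a sample, p-values measure only the spread between these samples.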

Additional observations from a re-analysis of the deposited data

Results flagged for a closer look

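Each of 35 sets of 4 values from 1 group was searched for a highest or lowest sample that stood far off, measured as its distance to its neighbour over the whole spread. This applied to 7 sets, and chance alone flags about 1 in 20. Most of the sets rest on the same U6 wells and are not independent.

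Relative to U6, miR-200c in sample 6a lay at -13.37, above the other MLC/SOD1[G93A] samples (-14.58 to -14.49). Sample 7a lay lowest of its group for miR-217 (-15.34, others -13.75 to -13.51), miR-31 (-11.44, others -10.39 to -10.28), miR-34b-3p (-11.17, others -9.71 to -9.45), miR-449a (-15.59, others -13.43 to -13.30) and miR-338-3p (-14.88, others -12.39 to -11.98). Its mean U6 Ct of 16.88 was the lowest of the 8 samples, and it enters each of these values. Relative to the global mean, sample 7a stayed lowest of its group for miR-217 (-3.53, others -3.47 to -3.18), miR-449a (-3.78) and miR-338-3p (-3.07). It was not lowest for miR-34b-3p (0.64, others 0.62 to 0.83), and for miR-31 it was highest (0.37). Of the 13 other organ miRNAs, wild type 3 measured 10 where the other wild type samples each measured 9. With equal counts in the other samples, any differing count is flagged, so the rate of 1 in 20 does not hold for this set. The plant control miR159a, outside the comparisons, reached the threshold at 29.85 cycles in sample 7a and not in the other 7 samples.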

How the results depend on the processing

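The adjusted p of the 4 tested miRNAs ran from 0.503 to 0.998 in limma over 75 values under the alternatives, of which 58 kept their direction and 17 changed it. The log2 change of miR-200c (-0.09) was 0.26 relative to the global mean, 0.0075 with no reference, 0.375 with the other controls without U87 and 0.23 without samples 7a and 8a. That of miR-429 (0.04) was -0.42 with the other controls and -0.22 without samples 7a and 8a, that of miR-203 (-0.41) was 0.055 with the other controls without U87, and that of miR-375 (0.23) was -0.55 with missing wells set to a Ct of 35. Leaving out each sample gave -0.63 to 0.34 for miR-200c, -0.45 to 0.35 for miR-429, -0.68 to 0.084 for miR-203 and -0.17 to 0.57 for miR-375. The cause was not tested. With a Ct limit of 32, 21 member wells and 42 wells of the other organ miRNAs were left, and the share of samples measuring miR-200b was lower by 25 percentage points in MLC/SOD1[G93A] mice (a difference of -25) in place of higher. Over the card, 6 assays had an unadjusted p under 0.05. There were 21 relative to the global mean, 11 with the other controls, 20 without U87 among them, 14 with no reference, 3 when measured in all 8 samples and 3 without samples 7a and 8a. Leaving out each sample gave 4 to 37 of these and 0 to 4 at an adjusted p under 0.05, the highest of both without wild type 1. Leaving out samples 7a and 8a, and U87, were chosen after seeing the data. No paired analysis was made, since no source used here ties a wild type sample to an MLC/SOD1[G93A] sample. The MLC/SOD1[G93A] columns also carry no replicate number of the labels.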
